A study of Mus musculus with 11 samples.

Results

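The interleukin and TNF superfamily genes were taken as every gene of the mRNA arrays whose symbol begins with Il and a digit, or with Tnfrsf or Tnfsf. There were 114 of them among 21759 gene symbols: 50 ligands, 62 receptors or receptor chains, and 2 that are neither, Il18bp, a secreted protein that binds IL-18, and Il4i1, an amino acid oxidase. The rule uses names and no measured value. Messenger RNA had been measured in cryosections of the tibialis anterior (TA) muscle, a separate Affymetrix Mouse Gene ST array for each of 11 male mice, all of the C57/B10 strain and 14 weeks old. The C57 group held 3 untreated wild-type mice, the mdx group 4 untreated mice that lack dystrophin through a mutation of Dmd, and the treated group 4 mdx mice that had received a single tail vein injection of Pip6e-PMO at 12.5 mg/kg when 12 weeks old. Pip6e-PMO is a morpholino oligonucleotide joined to a cell-penetrating peptide, and it restores dystrophin by exon skipping. All mdx mice therefore shared the mutation, and the treated mice had been followed for only a short time. No injection of an inactive oligonucleotide was part of these groups.

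Interleukins and TNF superfamily ligands are signals between cells, and their receptors are membrane proteins whose amount sets which cells can respond. Most interleukin receptors are built from 2 or more chains, some of them shared between cytokines, and signal through JAK kinases and STAT factors, whereas receptors of the IL-1 family and many TNF receptors lead to NF-kB and MAP kinases. In dystrophic muscle, fibres degenerate and regenerate while macrophages and other leukocytes enter the tissue, and both muscle cells and leukocytes carry receptors of these families.

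In mdx muscle, 12 of 43 tested genes, all of them receptors, were up-regulated over C57, beside 7.06% of all tested probe sets. They were led by Tnfrsf12a (3.75-fold), Tnfrsf23 (2.76-fold), Tnfrsf22 (2.41-fold) and Il2rg (2.34-fold). Il10ra, Il13ra1, Tnfrsf11a and Il2rb could be tested only because they were high in mdx or treated muscle. Only 9 of the 50 ligands had enough signal to be tested, against 32 of the 62 receptors. None of these 9 rose, and 2 of them, Il15 and Il12a, were lower along with the receptor Tnfrsf21. Between treated and untreated mdx muscle 2 of 43 tested genes were called (4.65%, beside 11.1% of all tested probe sets), Tnfsf10 (higher) and Tnfrsf23 (lower), and this count ran from 0 to 12 when a single mouse was left out. Against C57, treated muscle was higher at all 12 of the receptor genes and at 2 others (14 of 43, beside 15.6% of all), but 6 of the 12 calls, those of Tnfrsf12a, Il10ra, Il2rb, Il4ra, Il1r1 and Il17ra, were lost in at least 1 fit without a single mouse, and the 17 genes called in either direction became 8 without C57 mouse 2.

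Values are log2 intensities throughout, so a difference of 1 is a doubling, and levels of different genes are not compared, because every probe set has its own brightness. A gene was tested when its probe set had a mean intensity of at least 30 (a log2 value of 4.91) in at least 1 group, and it was called when its limma p, adjusted by Benjamini-Hochberg across the 14494 probe sets tested, was under 0.05. Of the 114 genes, 43 were tested (9 of the 50 ligands, 32 of the 62 receptors and both others) and 71 were below 30 in every group. The filter favours differences at genes near it: Il10ra, Il13ra1 and Tnfrsf11a were above 30 only in mdx and treated muscle and Il2rb only in mdx muscle, so their tests were possible because they were high there. As a check of the tissue, all 8 mature fast fibre markers were tested and none was called in any comparison, whereas all 10 T cell markers and all 5 NK cell markers were below 30 in every group. Dmd itself ran from 5.77 to 5.87 in the C57 mice, from 4.60 to 5.82 in the mdx mice and from 5.51 to 6.34 in the treated mice, and was called in no comparison (adjusted p of 0.198, 0.142 and 0.961). Its mutation leaves the transcript measurable, so this level does not check the labels. Treated mouse 2 stood apart from the other treated mice at many of the genes below, and results that rest on it are also given without it.

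The upstream sequences of the receptor genes that rose together are shown here so that genes that moved together can be compared by the letters close to their starts. RefSeq windows of GRCm38.p6 were at hand for 91 of the 114 genes and for 8 of the 12 receptor genes, and the 250 bases before the annotated start were searched on both strands. The motifs were a kappa-B pattern, GGGANNNNCC, the AP-1 pattern TGANTCA, and the STAT pattern TTCNNNGAA, the last 2 of which read the same on both strands. Among the genes with a window, the 4 with the largest rises come first, then Tnfrsf1b because it holds a match, and last Tnfsf10, the ligand gene that was higher after treatment. They run 5′ to 3′ on the strand of the gene and end at the base before the start, and capitals mark a match.
Tnfrsf12a (chr17:23677450-23677699, - strand): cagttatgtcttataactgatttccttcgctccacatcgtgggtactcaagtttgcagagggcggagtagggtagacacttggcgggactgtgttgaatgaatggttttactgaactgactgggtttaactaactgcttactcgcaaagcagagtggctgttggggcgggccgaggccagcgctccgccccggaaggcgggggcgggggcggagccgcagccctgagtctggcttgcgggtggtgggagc
Tnfrsf23 (chr7:143685876-143686125, - strand): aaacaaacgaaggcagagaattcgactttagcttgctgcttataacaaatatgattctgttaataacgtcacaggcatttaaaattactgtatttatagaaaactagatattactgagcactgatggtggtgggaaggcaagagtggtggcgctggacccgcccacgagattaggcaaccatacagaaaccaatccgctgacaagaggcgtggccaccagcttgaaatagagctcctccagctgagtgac
Il2rg (chrX:101268256-101268505, - strand): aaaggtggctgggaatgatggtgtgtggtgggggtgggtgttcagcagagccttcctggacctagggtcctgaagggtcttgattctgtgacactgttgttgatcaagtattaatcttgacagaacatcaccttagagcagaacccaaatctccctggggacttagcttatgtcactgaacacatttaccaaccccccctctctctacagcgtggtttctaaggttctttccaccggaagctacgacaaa
Il13ra1 (chrX:36111858-36112107, + strand): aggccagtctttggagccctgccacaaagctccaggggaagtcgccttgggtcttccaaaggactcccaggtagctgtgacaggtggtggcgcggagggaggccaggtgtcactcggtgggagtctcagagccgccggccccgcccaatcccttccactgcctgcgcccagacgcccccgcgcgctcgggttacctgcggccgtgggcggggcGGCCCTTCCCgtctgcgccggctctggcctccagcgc
Tnfrsf1b (chr4:145246871-145247120, - strand): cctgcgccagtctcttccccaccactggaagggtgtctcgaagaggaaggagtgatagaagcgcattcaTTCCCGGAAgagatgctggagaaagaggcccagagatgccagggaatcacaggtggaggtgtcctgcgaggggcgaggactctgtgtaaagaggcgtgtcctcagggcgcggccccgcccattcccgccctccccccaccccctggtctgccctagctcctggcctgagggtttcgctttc
Tnfsf10 (chr3:27316827-27317076, + strand): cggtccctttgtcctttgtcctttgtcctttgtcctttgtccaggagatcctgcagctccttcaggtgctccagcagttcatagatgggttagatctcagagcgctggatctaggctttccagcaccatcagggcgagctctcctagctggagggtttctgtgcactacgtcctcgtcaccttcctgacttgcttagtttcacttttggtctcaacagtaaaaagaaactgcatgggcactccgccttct

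Among the 8 receptor genes, 1 window held the kappa-B pattern (Il13ra1, beginning 37 bases before the start), 1 the STAT pattern (Tnfrsf1b, beginning 181 bases before it) and 0 the AP-1 pattern. Of all 32851 windows of the same length, 17.6% held the kappa-B pattern, 7.02% the STAT pattern and 6.75% the AP-1 pattern. Among the 91 genes with a window, 26 held the kappa-B pattern, 18 the AP-1 pattern and 13 the STAT pattern in at least 1 of their 110 windows. Counted by window, as the shares above are, 23.6%, 16.4% and 11.8% of the 110 held them. A match is a run of letters and not a bound site, and no match says only that these letters are not in this window.

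The first comparison asked which of these genes differ in dystrophic muscle. In mdx against C57, 15 of the 43 tested genes were called, where 12% of all tested probe sets were. Of these, 12 were higher (7.06% of all tested probe sets) and 3 were lower (4.96%). Without the signal filter, 14 of the 114 genes were called against 6.13% of all 28350 probe sets, the same list less Il1r1. The median difference over the 114 genes was 0.04, that over the 62 receptors 0.09 and that over the 50 ligands -0.01, beside -0.01 over all probe sets. Among the 12 genes that rose, every mdx mouse was above every C57 mouse. These genes were picked for their difference in the same mice, so this adds no support. The share of all probe sets without overlap is not given here.

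**Figure D1:**
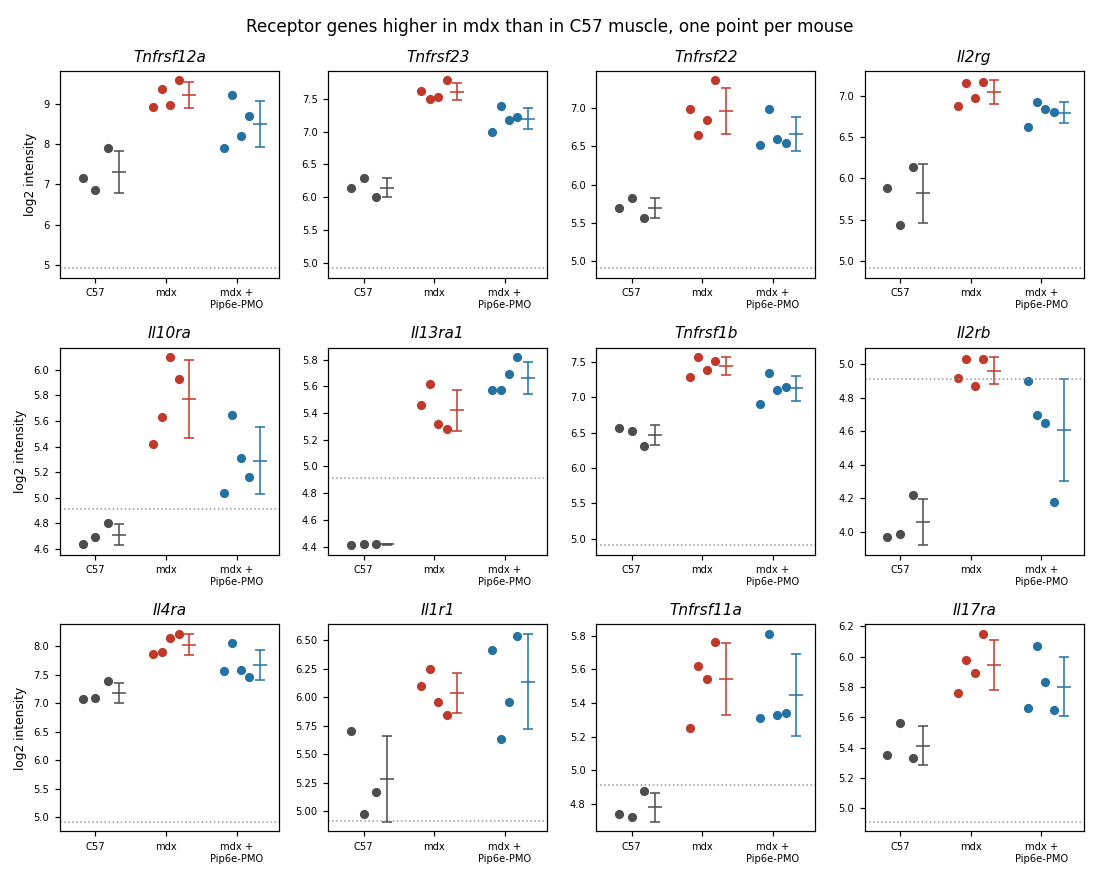
Log2 intensity of the 12 receptor genes that were higher in mdx than in C57 muscle, in order of the difference, with a point for each mouse (3 C57, 4 mdx, 4 treated mdx) and the mean ± SD beside the points. The dotted line is the log2 of an intensity of 30, and each vertical axis has its own range. In every panel all mdx points lie above all C57 points, and in 10 of the 12 panels the treated mean lies between the means of the other groups. The 12 genes were picked for high values in the same mdx mice, so nothing is read from these counts.

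Members of the TNF receptor superfamily gave the 3 largest rises. Tnfrsf12a encodes Fn14, the receptor of the ligand TWEAK, and is known to be induced in injured muscle. It read 7.16, 6.87 and 7.90 in the C57 mice, 8.93, 9.37, 8.98 and 9.59 in mdx, and 7.91, 9.21, 8.19 and 8.69 in treated mice. The mdx mice lay well above the C57 mice, and the treated mice spread from the level of the highest C57 mouse to that of the mdx mice. The rise from C57 to mdx was 1.91 ± 0.31 (SE, adjusted p = 0.00202). Its ligand gene, Tnfsf12, was not analysed here.

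Tnfrsf22 and Tnfrsf23 are neighbours on chromosome 7 and encode decoy receptors that bind the ligand TRAIL without a death domain. Tnfrsf23 read 6.14, 6.29 and 6.01 in C57, 7.62, 7.50, 7.53 and 7.79 in mdx, and 7.0, 7.39, 7.18 and 7.22 in treated mice. Its 3 groups did not overlap at all, with the treated mice between the others. The rise from C57 to mdx was 1.46 ± 0.12 (SE, adjusted p = 2e-05). Tnfrsf22 read 5.70, 5.82 and 5.56 in C57, 6.99, 6.65, 6.84 and 7.36 in mdx, and 6.51, 6.98, 6.60 and 6.54 in treated mice. Here the treated mice overlapped the mdx mice through treated mouse 2, while both groups were clear of C57. The rise was 1.27 ± 0.16 (adjusted p = 0.00052). The third gene of this run, Tnfrsf26, was below 30 in all groups, at 3.43 to 3.92 over the 11 mice. Whether probes of one of these related genes also bind transcripts of another was not tested, although the deposited annotation lists a single transcript match for them.

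Tnfrsf1b and Tnfrsf1a encode the pair of TNF receptors, the first found mainly on leukocytes and endothelium and the second on most cells. Tnfrsf1b read 6.56, 6.53 and 6.31 in C57, 7.29, 7.57, 7.39 and 7.52 in mdx, and 6.91, 7.34, 7.10 and 7.15 in treated mice. The C57 mice were below all others, and only treated mouse 2 reached the range of the mdx mice. The rise in mdx was 0.98 ± 0.12 (adjusted p = 0.00034). Tnfrsf1a read 8.54, 8.60 and 8.79 in C57, 8.81, 8.85, 8.74 and 9.18 in mdx, and 8.42, 9.02, 8.54 and 8.52 in treated mice, and its difference of 0.25 ± 0.15 was not called (adjusted p = 0.344). Tnf, their ligand, was at means of 5.22 in C57, 5.24 in mdx and 5.21 in treated muscle and was not called (adjusted p = 0.953 for mdx against C57).

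Tnfrsf11a encodes RANK, the receptor of RANKL that is best known from osteoclasts. Its values were 4.74, 4.72 and 4.88 in C57, 5.25, 5.62, 5.54 and 5.76 in mdx, and 5.31, 5.81, 5.33 and 5.34 in treated mice. All C57 mice were below the tested minimum, and treated mouse 2 was the highest of all 11 mice. The rise was 0.76 ± 0.15 (adjusted p = 0.00547). The ligand gene Tnfsf11 differed by 0.03 ± 0.12 (adjusted p = 0.928) close to the minimum, and Tnfrsf11b, the soluble decoy osteoprotegerin, was below it in every group, at 3.78 to 4.33 over the mice.

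Several of the risen interleukin receptor genes encode chains that work together. Il2rg is the common gamma chain, which serves the receptors of IL-2, IL-4, IL-7, IL-15 and other cytokines. It read 5.88, 5.43 and 6.14 in C57, 6.88, 7.16, 6.97 and 7.17 in mdx, and 6.62, 6.92, 6.84 and 6.80 in treated mice. The C57 mice were clear of both other groups, and the rise in mdx was 1.23 ± 0.15 (adjusted p = 0.00038). Il4ra is the chain that binds IL-4 and pairs either with Il2rg or with Il13ra1. Its values were 7.07, 7.09 and 7.39 in C57, 7.86, 7.90, 8.15 and 8.22 in mdx, and 7.57, 8.06, 7.59 and 7.46 in treated mice. Treated mouse 2 lay among the mdx mice and the other treated mice between the groups. The rise was 0.85 ± 0.15 (adjusted p = 0.00384).

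Il13ra1 completes the receptor that answers to both IL-4 and IL-13. It read 4.41, 4.42 and 4.42 in C57, 5.46, 5.62, 5.32 and 5.28 in mdx, and 5.57, 5.57, 5.69 and 5.82 in treated mice. The C57 mice were all below the tested minimum and hardly differed, and the treated mice reached beyond the highest mdx mouse. The rise was 1.00 ± 0.10 (adjusted p = 1e-04). The ligand genes Il4 and Il13 were below 30 in all groups, with values of 2.38 to 2.64 for Il4 and 4.23 to 4.79 for Il13.

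Il2rb, the chain that IL-2 and IL-15 share, read 3.97, 3.99 and 4.22 in C57, 4.92, 5.03, 4.87 and 5.03 in mdx, and 4.90, 4.70, 4.65 and 4.18 in treated mice. Only the mdx group was above 30, the treated mice overlapped both other groups, and the rise was 0.90 ± 0.15 (adjusted p = 0.00215). Il2ra and Il7r, chains particular to IL-2 and to IL-7, were below 30 in every group, at 3.95 to 4.46 and 3.49 to 3.91. Il15ra was tested and not called, at means of 6.31, 6.11 and 6.18 in C57, mdx and treated muscle.

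Il10ra, the ligand-binding chain for the anti-inflammatory cytokine IL-10, read 4.64, 4.69 and 4.80 in C57, 5.42, 5.63, 6.10 and 5.93 in mdx, and 5.04, 5.65, 5.31 and 5.16 in treated mice. Its groups were in the order C57, treated and mdx, with treated mouse 2 inside the mdx range and a rise in mdx of 1.06 ± 0.17 (adjusted p = 0.00207). Its partner chain Il10rb, shared with related cytokines, had 6.77, 6.57 and 6.37 in C57, 6.76, 7.26, 6.93 and 6.93 in mdx, and 7.10, 6.98, 7.25 and 7.17 in treated mice. One mdx mouse was at the level of the highest C57 mouse, and the difference of 0.40 ± 0.13 was not called (adjusted p = 0.0738). Il10 was below 30 throughout, at 2.26 to 2.55.

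Il17ra, the chain common to the IL-17 receptors, read 5.35, 5.56 and 5.33 in C57, 5.76, 5.98, 5.89 and 6.15 in mdx, and 5.66, 6.07, 5.83 and 5.65 in treated mice. The smallest of the 12 rises was found here, 0.53 ± 0.13 (adjusted p = 0.0182). This call was lost without C57 mouse 1 (adjusted p = 0.0623) or C57 mouse 3 (0.0749), and over the 11 fits that each leave out a mouse the adjusted p ran from 0.00688 to 0.0749.

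Il1r1, the signalling receptor of IL-1, read 5.70, 4.97 and 5.17 in C57, 6.10, 6.25, 5.96 and 5.84 in mdx, and 6.42, 5.63, 5.96 and 6.54 in treated mice. The mdx mice were above all C57 mice by a small margin, and treated mouse 2 fell below the highest C57 mouse. A rise of 0.76 ± 0.22 was called at an adjusted p of 0.0451, and the call was lost in 12 of 23 other settings, among them the fit without C57 mouse 2 (0.60, adjusted p = 0.193). It also went without C57 mouse 3 (0.142), without mdx mouse 1, 2, 3 or 4 (0.0931, 0.116, 0.0771 and 0.0545) or without treated mouse 3 (0.0607), whereas the lowest adjusted p with a mouse left out was 0.0175. Il1r1 lies on chromosome 1 in a run of 6 neighbouring receptor genes of the IL-1 family: Il1r2, Il1r1, Il1rl2, Il1rl1, Il18r1 and Il18rap. Il1rl2, the receptor of the IL-36 cytokines, was the only other one tested and differed by 0.15 ± 0.11 (adjusted p = 0.471). Il1r2, a decoy receptor, Il1rl1, the receptor of IL-33, and the IL-18 receptor chains Il18r1 and Il18rap were below 30 in every group.

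**Figure D2:**
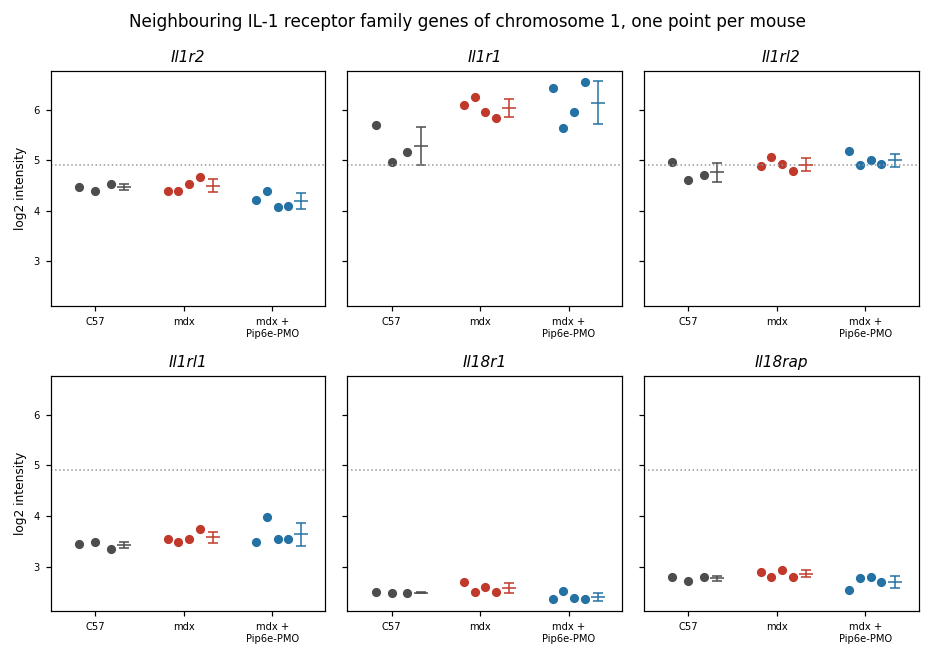
Log2 intensity of 6 neighbouring IL-1 receptor family genes on chromosome 1, with a point for each mouse and the mean ± SD of each group on a common vertical axis, and the log2 of an intensity of 30 dotted. Il1r1 is the gene of the 6 at which every mdx point lies above every C57 point (5.84 the lowest against 5.70 the highest), and the points of Il1r2, Il1rl1, Il18r1 and Il18rap all lie below the dotted line.

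The ligands of this system and its regulators were low or not called. Il1b was at means of 3.60, 3.56 and 3.41 in C57, mdx and treated muscle, and Il33, an alarm signal released by damaged cells, at 3.82, 3.45 and 3.70. Il18, Il1rn, the IL-1 receptor antagonist, and Il1rap, the shared accessory chain, were below 30 in all groups as well. Il18bp was tested and differed by 0.09 ± 0.12 (adjusted p = 0.711).

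For the IL-6 family, the signal-transducing chain Il6st (gp130) read 10.13, 9.60 and 9.04 in C57, 9.67, 9.89, 9.72 and 9.63 in mdx, and 10.20, 9.46, 10.13 and 10.38 in treated mice. The C57 mice spanned more than the mdx mice, and the difference of 0.14 ± 0.24 was not called (adjusted p = 0.798). Il6ra, the IL-6 binding chain, was not called either, at means of 7.03, 6.80 and 6.71 in C57, mdx and treated muscle. Il6 itself was at 1.95 to 2.41 in all mice, far under the tested minimum.

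Of the genes that were lower in mdx, Il15 encodes a cytokine that muscle fibres make. Its values were 6.87, 6.67 and 7.18 in C57, 6.37, 6.07, 6.23 and 5.86 in mdx, and 6.91, 6.17, 6.51 and 6.71 in treated mice. All mdx mice were below all C57 mice, and treated mice overlapped both. The level fell by 0.77 ± 0.18 (adjusted p = 0.0158), and the call was lost without C57 mouse 3 (adjusted p = 0.0793, against 0.00551 at the lowest with another mouse left out).

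Tnfrsf21, the death domain receptor DR6, read 9.25, 9.30 and 9.41 in C57, 8.69, 8.92, 8.89 and 8.86 in mdx, and 8.92, 8.98, 8.89 and 8.97 in treated mice. The C57 mice were above all others, mdx and treated mice overlapped, and the level fell by 0.48 ± 0.09 (adjusted p = 0.00445). Il12a, the p35 subunit of IL-12 and IL-35, read 5.69, 5.63 and 5.39 in C57, 4.88, 5.18, 5.08 and 5.25 in mdx, and 5.01, 4.99, 5.17 and 5.37 in treated mice. Here too the C57 mice were the highest, by little, and the level fell by 0.47 ± 0.13 (adjusted p = 0.0307). Leaving out any one of C57 mice 1 and 2 or mdx mice 1, 2 and 3 ended the call for Il12a, at adjusted p values of 0.107, 0.116, 0.0761, 0.0517 and 0.0692, against 0.0234 at the lowest. The other 10 rises, and the fall of Tnfrsf21, stayed called whichever mouse was left out, with adjusted p up to 0.0293.

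Markers of some other cells, but not of all those listed, also differed between mdx and C57 muscle. Of 10 macrophage markers, 9 were tested and 8 were higher in mdx, where 7.06% of all tested probe sets were. Among them were Lyz2 (1.70, adjusted p = 0.00016) and Cd68 (2.12, adjusted p = 0.00034). Itgam and Fcgr1, also among the 8, were above 30 only in mdx and treated muscle. Their tests were possible because they were high there. The untested marker, Cd163, went the other way. It was lower in mdx in the fit without the signal filter (-0.30, adjusted p = 0.044, no overlap of the groups). The summed intensity of the list ran from 1100 to 1542 over the C57 mice, from 2875 to 4580 over the mdx mice and from 2260 to 3051 over the treated mice, with treated mouse 2 the highest of the treated mice. Of 6 regenerating fibre markers, 4 were higher in mdx, and their summed intensity lay at 624 to 816 for C57 mice, 1012 to 1462 for mdx mice and 696 to 1163 for treated mice, again with treated mouse 2 the highest of its group. The T cell markers were all below 30, with a summed intensity of 140 to 154 for C57 mice, 164 to 185 for mdx mice and 145 to 159 for treated mice. Among them Cd4 was higher in mdx in the fit without the signal filter (0.64, adjusted p = 0.00879, no overlap of the groups), and Cd5 was lower in treated than in mdx mice (-0.34, adjusted p = 0.0476). Of 9 granulocyte and mast cell markers and 5 B cell markers, 1 each was tested, Mcpt4 and Cd79b, and neither was called. Of 6 fibro-adipogenic progenitor markers, 1 was higher, Cd34 (0.44, adjusted p = 0.0454), and of 4 endothelial markers none was called. In RNA from whole sections, more cells of a type and more RNA per cell cannot be told apart, and the part of these markers in the receptor values was not tested.

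The genes around the receptors were taken from lists. Of 16 cytokines and chains that share interleukin receptors, 15 were found and 11 tested. In mdx 4 were higher and 1 lower, beside 7.06% and 4.96% of all tested probe sets, and the median of the 15 was 0.28. The higher ones were Csf2rb (1.16, adjusted p = 0.00084), the beta chain shared by IL-3, IL-5 and GM-CSF receptors, Csf2rb2, its IL-3 counterpart (1.02, adjusted p = 0.00084), Csf2ra and Clcf1, and the lower one was Cntfr, the receptor of ciliary neurotrophic factor (-1.67, adjusted p = 8.7e-05). Csf2rb and Csf2rb2 are close copies, so their probes may not separate them. Clcf1 was above 30 only in mdx and treated muscle, so its test was possible because it was high there. Of 15 TNF superfamily members with other symbols, 8 were tested and 1 was higher, beside 7.06% of all tested probe sets. It was Eda2r, a receptor of ectodysplasin A2 (0.82, adjusted p = 0.00786), and the median of the 15 was 0.03.

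In the pathway downstream of the interleukin receptors, 16 of 17 JAK-STAT genes were tested, and 3 were higher and 1 lower in mdx, beside 12% of all tested probe sets called in either direction. Socs3, a feedback inhibitor of cytokine signalling, was 1.54 higher (adjusted p = 0.00457), Stat6, which IL-4 and IL-13 receptors activate, 0.50 higher (adjusted p = 0.00485), and the phosphatase Ptpn6 0.54 higher (adjusted p = 0.02), whereas Stat5b was lower (-0.54, adjusted p = 0.0186). Of 36 genes that lead from IL-1 and TNF receptors to NF-kB, 35 were tested and 3 were higher in mdx, near the 7.06% of all tested probe sets: the adaptor Myd88 (0.84, adjusted p = 0.0086), the NF-kB subunit gene Nfkb2 (0.66, adjusted p = 0.0202) and the caspase inhibitor Cflar (0.36, adjusted p = 0.0428). None of the 36 was called lower.

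The second comparison asked what 2 weeks after a single injection had changed. In treated against untreated mdx muscle, 2 of the 43 tested genes were called, where 11.1% of all tested probe sets were: 1 was higher (7.26% of all) and 1 lower (3.88%). At an unadjusted p under 0.05, 14 of the 43 passed. The share of all tested probe sets at that threshold is not given here, so nothing is read from this count. The same mdx mice stand in this comparison and in the first, so the values of each are given side by side and no relation between them is drawn. Over the 12 receptor genes that had risen in mdx, the difference between treated and mdx means ran from -0.72 (Tnfrsf12a) to 0.24 (Il13ra1), with a median of -0.31. These 12 genes were picked for high values in the same mdx mice, which by itself draws this difference downward, so nothing is read from the median.

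Tnfrsf23 was the gene that was lower, with a difference of -0.41 ± 0.11 (adjusted p = 0.0343), with every treated mouse below every mdx mouse and above every C57 mouse. The call was lost in 10 of 24 other settings: adjusted p was 0.0561 when only the mdx and treated mice were fitted, 0.0599, 0.0647 and 0.094 without mdx mouse 1, 3 or 4, and 0.0873, 0.0786 and 0.0829 without treated mouse 1, 3 or 4. It was 0.00946 without treated mouse 2. Tnfsf10 encodes TRAIL, a ligand that can trigger cell death and that the decoy receptor Tnfrsf23 binds. Its values were 5.53, 5.44 and 5.24 in C57, 5.58, 5.52, 4.93 and 4.64 in mdx, and 6.29, 5.57, 5.95 and 5.83 in treated mice. Treated mouse 2 was at the level of the highest mdx mouse, while the other treated mice were above every C57 and mdx mouse. The level was 0.74 ± 0.21 higher in treated mice (adjusted p = 0.0422), and the call was lost with any one of 8 of the 11 mice left out. Adjusted p was 0.0535, 0.0601 and 0.0516 without C57 mouse 1, 2 or 3, 0.102 and 0.107 without mdx mouse 3 or 4, and 0.113, 0.0915 and 0.0898 without treated mouse 1, 3 or 4, against 0.0149 without treated mouse 2. Without the signal filter, 2 of the 114 genes were called (4.84% of all probe sets): Tnfrsf23 and Il6, whose mean fell by 0.28 between values that were all below the tested minimum.

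Treated mouse 2 differed from its group, and not only in the receptor genes. Leaving it out raised the calls between treated and mdx muscle from 11.1% to 28.3% of all tested probe sets. Among the 12 receptor genes that had risen in mdx, treated mouse 2 was the highest of the treated mice at 9. It was at or above the lowest mdx mouse at 9, whereas treated mouse 1 was the lowest at 8. These counts describe single mice over genes picked for high mdx values, and the genes are not separate tests. The median distance of a treated mouse from the mdx mean over these genes was -0.44, -0.06, -0.33 and -0.34 for treated mice 1 to 4. Without treated mouse 2, 12 of the 43 genes were called between treated and mdx muscle, near the 28.3% of all tested probe sets. Of the 12, 9 were lower, beside 12% of all. These included Tnfrsf12a (-0.95, adjusted p = 0.02), Il10ra (-0.60, adjusted p = 0.0142), Il4ra (-0.49, adjusted p = 0.0126), Tnfrsf1a (-0.40, adjusted p = 0.0247) and Tnfrsf1b (-0.39, adjusted p = 0.0203), while Il15 was higher (0.58, adjusted p = 0.0188). With all mice, the differences of these 6 genes were -0.72, -0.48, -0.36, -0.27, -0.32 and 0.44, and none was called (adjusted p of 0.112, 0.0686, 0.109, 0.21, 0.077 and 0.101). Without treated mouse 2, Il17rc (-0.32, adjusted p = 0.0343), Il20rb (-0.32, adjusted p = 0.0424), Tnfrsf13b (-0.27, adjusted p = 0.0402) and Tnfrsf23 were lower as well. Tnfrsf19 (0.44, adjusted p = 0.0333) and Tnfsf10 were higher. Of these, Il17rc, Il20rb, Tnfrsf13b and Tnfrsf19 were called in no comparison with all mice, and Tnfrsf13b was above 30 only in mdx muscle. At its other probe sets, Il20rb differed by -0.08 with all mice.

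**Figure D3:**
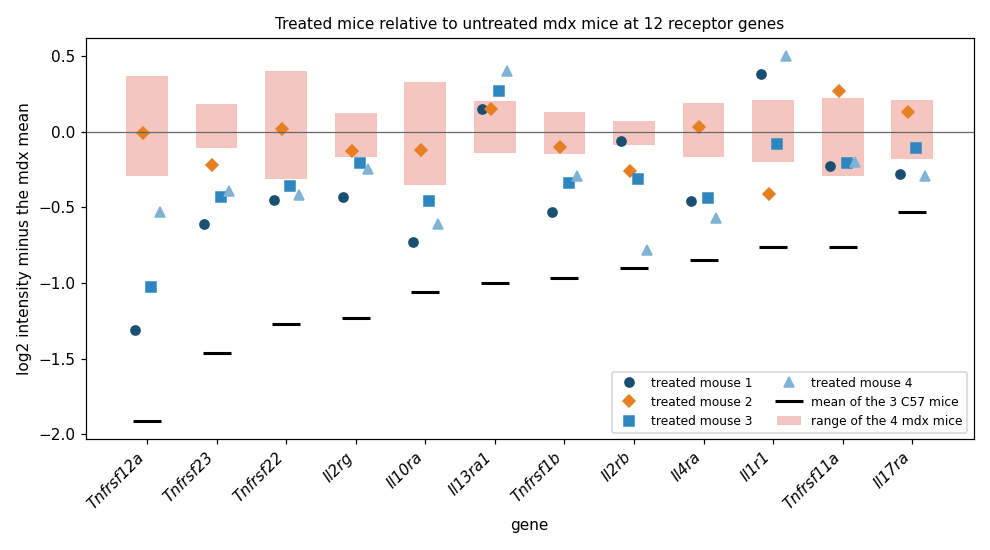
Log2 intensity relative to the mdx mean at the 12 receptor genes that were higher in mdx, with a point for each treated mouse, a bar for the range of the 4 mdx mice and a black dash for the C57 mean. Treated mouse 2 (orange) lies at or above the lower end of the mdx range at 9 genes, and Il13ra1 and Il1r1 are the genes at which the treated mean is above the mdx mean.

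Markers moved in this comparison as well, in which 3.88% of all tested probe sets were lower and 7.26% higher. Of the macrophage markers, 2 were lower in treated than in mdx muscle, Cd68 (-1.04, adjusted p = 0.0245) and Tyrobp (-1.12, adjusted p = 0.022), and 1 was higher, Mrc1 (0.49, adjusted p = 0.0377). Of the 6 fibro-adipogenic progenitor markers, 2 were lower, Ly6a (-0.58, adjusted p = 0.016) and Pi16 (-1.01, adjusted p = 0.0397), and the others were not called, with differences of 0.50 for Pdgfra, 0.31 for Dcn and 0.00 for Cd34 and Col1a1, so that the median of the list was 0.00. Of the 4 endothelial markers, 2 were higher, Pecam1 (0.78, adjusted p = 0.0277) and Tek (0.97, adjusted p = 0.0332), and their summed intensity was 1453 to 1860 in mdx and 2519, 1588, 2147 and 2364 in treated mice 1 to 4. The part of these markers in the values of Tnfsf10 and the receptors was not tested. Of the signalling genes, Socs3 was lower (-1.35, adjusted p = 0.0155), and 2 of the 35 tested genes from IL-1 and TNF receptors to NF-kB were higher, near the 7.26% of all tested probe sets, the kinase Chuk (0.58, adjusted p = 0.004) and the ubiquitin ligase Birc2 (0.54, adjusted p = 0.0164). Csf2rb2 was lower as well (-0.56, adjusted p = 0.0252).

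The third comparison asked how far treated muscle was from C57. Here 17 of the 43 genes were called, where 24.6% of all tested probe sets were, with 14 higher (15.6% of all) and 3 lower (8.96%). Without the signal filter there were 14 of 114, against 12.8% of all probe sets. The 14 higher genes were the 12 that were higher in mdx, with Il10rb and Tnfrsf10b. At 10 of those 12 the treated and C57 mice did not overlap, the exceptions being Il2rb and Il1r1. All 12 were called in this comparison, so little overlap follows from the choice and nothing is read from this count.

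Il13ra1 had the largest of these differences, 1.25 ± 0.10 (adjusted p = 3.8e-05), followed by Tnfrsf12a with 1.19 ± 0.31 (adjusted p = 0.017) and Tnfrsf23 with 1.05 ± 0.12 (adjusted p = 0.00018). Il10rb, with every treated mouse above every C57 mouse, differed by 0.56 ± 0.13 (adjusted p = 0.0117). Tnfrsf10b, which encodes the mouse TRAIL receptor with a death domain, read 5.83, 5.38 and 5.49 in C57, 6.06, 5.82, 5.96 and 6.07 in mdx, and 6.22, 5.65, 6.13 and 6.28 in treated mice. Only treated mouse 2 was inside the C57 range, and the difference of 0.50 ± 0.16 (adjusted p = 0.0363) was called.

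With each mouse left out in turn, 7 of the 17 calls were always kept: those of Il2rg, Il13ra1, Tnfrsf11a, Tnfrsf1b, Tnfrsf22, Tnfrsf23 and Tnfrsf21. Tnfrsf12a was lost without C57 mouse 2 (0.97, adjusted p = 0.078) and Il10rb without C57 mouse 3 (0.46, adjusted p = 0.0592). Without C57 mouse 1, the calls of Il10ra (adjusted p = 0.0763), Il2rb (0.0601), Il4ra (0.104), Il17ra (0.11) and Il12a (0.0865) were lost. Without C57 mouse 2, those of Il10ra (0.085), Il2rb (0.0727), Il4ra (0.121), Il17ra (0.0579), Il1r1 (0.0783), Tnfrsf10b (0.136), Il12a (0.0934) and Il28a (0.0824) were. Without C57 mouse 3, they were Il10ra (0.0648), Il17ra (0.145), Il1r1 (0.0667), Tnfrsf10b (0.119) and Il28a (0.0599).

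Mice of the other groups decided some of these calls as well. Without treated mouse 1, Il4ra (adjusted p = 0.051), Tnfrsf10b (0.0811) and Il12a (0.0643) were lost. Without treated mouse 3, Il10ra (0.0616), Il4ra (0.0594), Il17ra (0.0889), Tnfrsf10b (0.0776) and Il12a (0.0528) were. Il17ra was lost without treated mouse 2 (0.066), mdx mouse 2 (0.0589) or mdx mouse 3 (0.06), and Tnfrsf10b without treated mouse 4 (0.0918) or mdx mouse 3 (0.0503).

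The lower genes were Tnfrsf21 (-0.38, adjusted p = 0.0106), Il12a (-0.43, adjusted p = 0.0283) and Il28a (-0.50, adjusted p = 0.0176). Il28a, which encodes an interferon lambda and is now called Ifnl2, read 5.51, 5.96 and 5.77 in C57, 5.64, 5.39, 5.66 and 5.54 in mdx, and 5.50, 5.23, 5.10 and 5.14 in treated mice. The treated mice were below all C57 mice, by the smallest of margins at the nearest. Il15 was 0.33 below C57 in treated muscle on the log2 scale, with overlap, and was not called (adjusted p = 0.194).

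**Figure D4:**
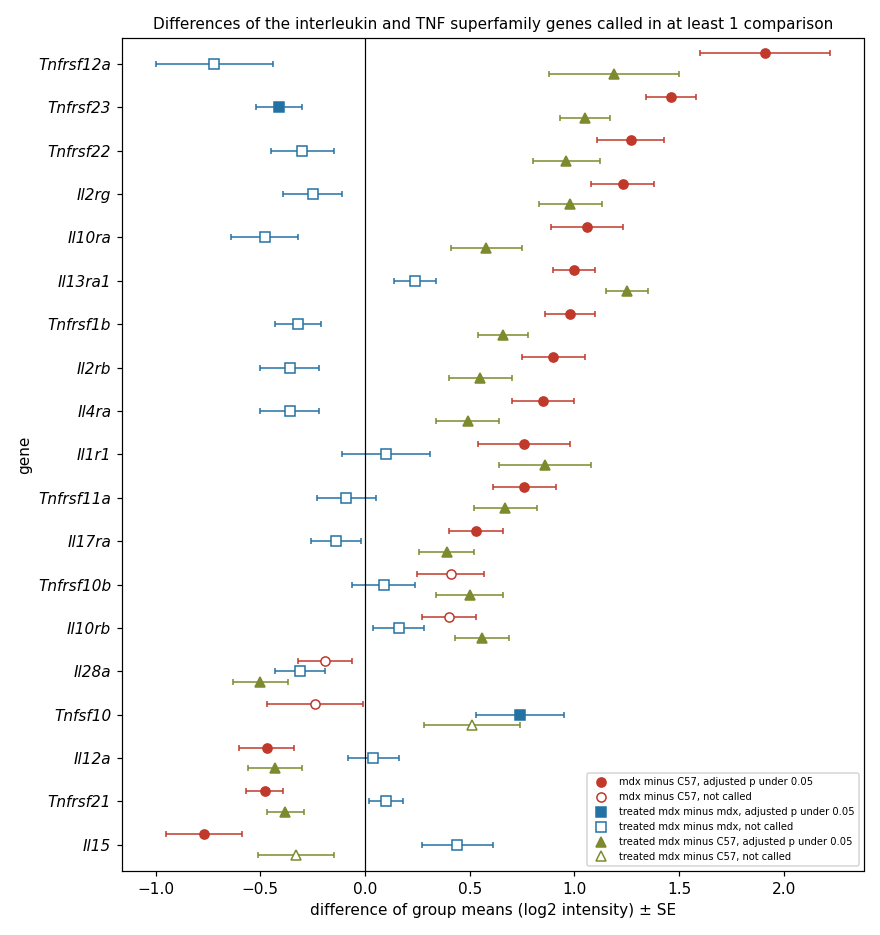
Differences of group means (log2 intensity) with their SE for the 19 genes called in at least 1 comparison, in order of the mdx minus C57 difference. Red circles are mdx minus C57, blue squares treated mdx minus mdx and green triangles treated mdx minus C57, and filled symbols are called at an adjusted p under 0.05. The top 12 genes are receptors with a filled red symbol, from 0.53 (Il17ra) to 1.91 (Tnfrsf12a), and only Tnfrsf23 and Tnfsf10 have a filled blue symbol.

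A further 24 tested genes were called in none of the comparisons. Their differences between mdx and C57 ran from -0.24 to 0.28 with a median of 0.10, and those between treated and mdx muscle from -0.33 to 0.32 with a median of -0.04. They include Il34, a ligand of the macrophage receptor Csf1r, at means of 7.31, 7.07 and 7.01 in C57, mdx and treated muscle, and Tnfsf13b, the B cell survival factor BAFF, at 4.81, 4.96 and 5.14. Il11ra1 and Il11ra2, near-identical genes whose probes match more than 1 transcript, cannot be told apart by these arrays. The 71 untested genes had group means between 2.01 and 4.88, and their differences between mdx and C57 ran from -0.37 to 0.44 with a median of 0.03.

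**Figure D5:**
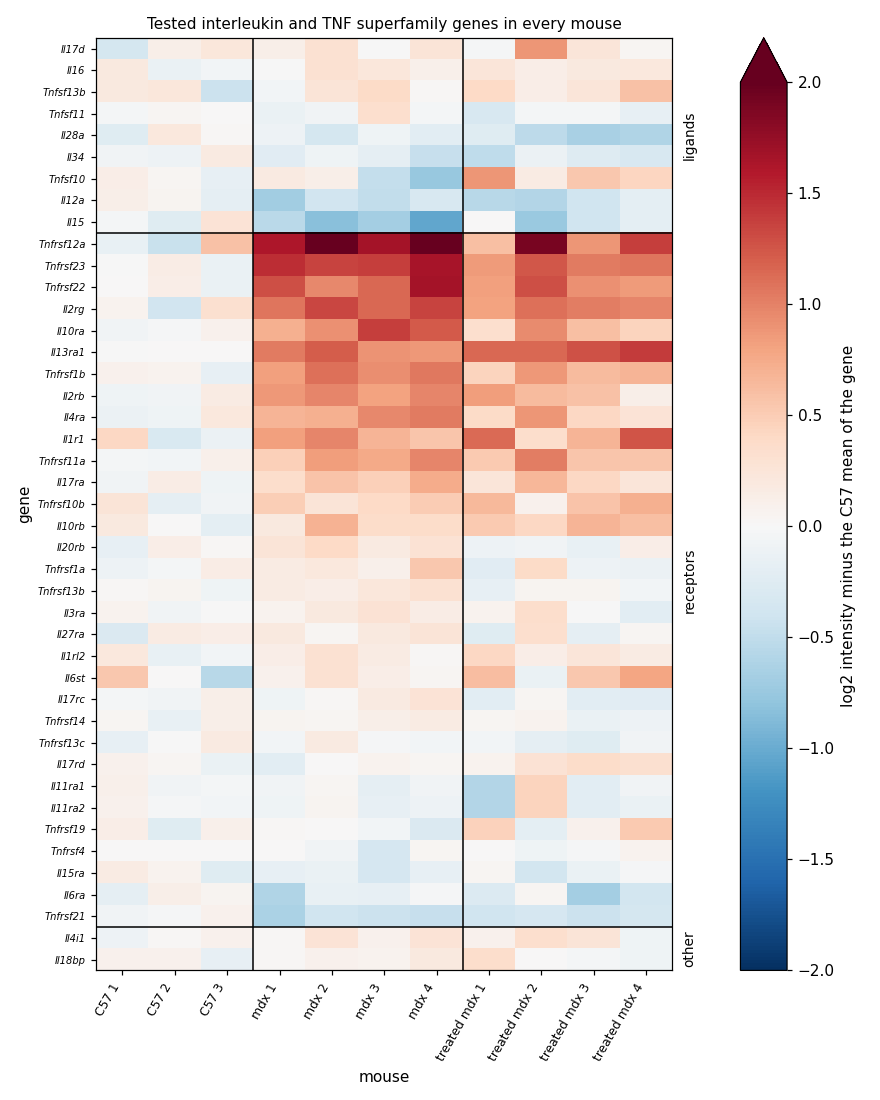
The 43 tested genes in each of the 11 mice, as log2 intensity minus the C57 mean of the gene (red higher, blue lower, with values over 2 drawn at the end of the scale), with ligands above, receptors in the middle and others below, each ordered by the mdx minus C57 difference. The red block of receptors from Tnfrsf12a to Il17ra spans all 4 mdx mice and is paler in treated mice 1, 3 and 4 than in treated mouse 2 for most of its genes.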

How the data were processed

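RNA from the TA of each of 11 mice (3 C57, 4 mdx, 4 mdx given Pip6e-PMO) was hybridized separately, on Affymetrix Gene ST 1.1 arrays for mouse. Intensity values were made by the authors in Affymetrix Expression Console (version not given in the sources used here) with RMA-Sketch (background correction, then quantile normalization to a sketch of the arrays, then median polish), and the deposited table gives 28350 probe sets in linear units. The stated removal of probe sets below 30 had not been applied. Array medians were 27.5 to 28.6, and the number of arrays limits the precision. Mice are separate animals, and the p-values set differences of group means against the spread between mice of a group.

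Deposited intensities were converted to log2, and the 14494 probe sets whose mean reached 30 in 1 group or more were fitted over all 11 mice with limma 3.58.1 in R 4.3.3 (two-sided, Benjamini-Hochberg adjustment). The fit was tested on simulated data. The probe set with the highest mean represented a gene, and 5 of the 114 genes had several. All 114 genes were found in RefSeq by Entrez identifier, 3 under another current symbol. Positions in the table carry no genome build and are not given. Genes named are those called in at least 1 comparison and a fixed list of interleukin and TNF family genes, and pathway and marker lists are given by counts with up to 4 examples each for a comparison, except where all called genes of a list are named; list genes beyond these were chosen after their values were seen. The others named, among them Tnfrsf26, Il1r2, Il1rl2, Il18r1, Il18rap, Il2ra, Il34, Il11ra1, Il11ra2 and Tnf, were chosen after their values were seen. The members and all lists were chosen with earlier results of these data known. The alternatives were other filters, scalings, probe set rules, tests and priors, array weights, a replicate block, and leaving out each mouse. Python 3.11.15, pandas 2.3.3, NumPy 2.4.6 and matplotlib 3.10.9 were used for tables and plots.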

Additional observations from a re-analysis of the deposited data

Results flagged for a closer look

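Among 78 groups of 4 mice of the named genes, 8 held a mouse whose distance from the nearest of the others took up most of the range of its group, where chance gives about 1 in 20. Treated mouse 2 was such a mouse at 3 genes: Tnfrsf11a at 5.81 (other treated mice 5.31 to 5.34), Il1rl1 at 3.98 (others 3.49 to 3.55) and Il33 at 3.77 (others 3.68). Mdx mouse 3 was low at Il15ra, 5.97 (others 6.14 to 6.17), and at Il4, 2.49 (others 2.52). Treated mouse 3 was low at Il4, 2.38 (others 2.51 to 2.52), mdx mouse 1 was high at Il6, 2.41 (others 2.24 to 2.26), and mdx mouse 4 was high at Il7r, 3.91 (others 3.74 to 3.75). Values of Il1rl1, Il33, Il4, Il6 and Il7r are below the tested minimum. The other mice of the group had equal values for Il33 in treated mice and for Il4 in mdx mice. The rate of 1 in 20 need not hold for such values, so nothing is read from the count of 8.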

How the results depend on the processing

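Of 1929 gene values under the alternatives, 1759 kept their direction and side of the threshold, 118 were no longer called, 25 became called and 27 changed sign. The count of 15 genes for mdx against C57 fell to 8 with a minimum signal of 100, which leaves 19 of the genes tested (12.9% of all probe sets called), and was 11 to 17 under the others. The count of 2 for treated against mdx was 1 with that minimum (12.2% of all) and 1 at the threshold of the study text (unadjusted p under 0.01 and 1.5-fold, 5% of all), 0 by the methods' t-test (0.607% of all probe sets called), 0 with only the 2 groups compared (5.04%) and 15 of 43 with array weights (31.8%). The count of 17 for treated against C57 was 8 with that minimum (24.9% of all), 6 by the methods' t-test (8.79%) and 8 at the threshold of the study text (11.2%). Leaving out 1 mouse gave 12 to 16, 0 to 12 and 8 to 18 genes in the 3 comparisons. The highest of these for treated against mdx came without treated mouse 2 and the lowest, 0, without mdx mouse 3 or 4 or treated mouse 1, 3 or 4, while the lowest for treated against C57, 8, came without C57 mouse 2.

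Replicate numbers did not pair the mice: over 10 same-number pairs, the correlation of deviations ran from -0.30 to 0.15. With the replicate block, 14 genes were called for mdx against C57, 1 for treated against mdx and 14 for treated against C57 (7.9%, 3.44% and 16.1% of all probe sets), and the Dmd difference between treated and C57 mice became 0.11.

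The sign changes were all at differences that were not called. Repeated quantile normalization gave 0.00 for Il12a and -0.01 for Il15ra in treated minus mdx, -0.08 for Il18bp in treated minus C57, and -0.01 for Tnfsf11 in mdx minus C57. Array weights gave -0.06 for Il18bp in treated minus C57, and centring the arrays gave -0.01 for Tnfsf11 in mdx minus C57. With a mouse left out, treated minus mdx ran from -0.04 to 0.09 for Il12a, -0.13 to 0.02 for Il18bp, -0.03 to 0.27 for Il1r1 and -0.21 to 0.03 for Il6ra. Treated minus C57 ran from -0.04 to 0.11 for Il18bp, -0.15 to 0.06 for Tnfrsf1a and -0.20 to 0.08 for Dmd. Mdx minus C57 ran from -0.14 to 0.41 for Il6st, -0.08 to 0.08 for Tnfsf11 and -0.06 to 0.27 for Tnfsf13b. The causes were not tested. Signal near the minimum limits what can be seen of the ligands, most of which were below it.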
